A study of Canis lupus familiaris with 12 samples.

Results

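A group of 10 genes of innate immune signalling was followed in beagle hippocampus: the toll-like receptors TLR2 and TLR4, their adaptor MYD88, the inflammasome genes NLRP3 and PYCARD, the cytokines IL1B, IL18 and IL6, the chemokine CCL2 and the prostaglandin enzyme PTGS2. They were taken by symbol, and all 10 were present among the 31158 gene models of the hippocampal table. The pacing arm had rapid atrial pacing, which drives the atria electrically and is used to provoke atrial fibrillation, for 2 weeks, and the sham arm had a sham operation. Each arm gave 3 hippocampal samples, sequenced as mRNA, out of 12 samples in the series; the other 6, exosomes of epicardial fat, are not used here. The study asked how atrial fibrillation relates to cognitive impairment. The labels give no age or sex and do not say whether each sample came from a separate dog, so p-values measure the spread between these samples.

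Toll-like receptors sit on microglia and other cells, bind microbial products or molecules released from damaged tissue, and signal through MYD88 to NF-kB, a transcription factor that switches on IL1B, IL6, CCL2, PTGS2 and NLRP3. The NLRP3 protein assembles with the adaptor ASC, encoded by PYCARD, into the inflammasome, which activates caspase-1, and caspase-1 cuts the precursors of IL-1 beta and IL-18 into their active forms. Messenger RNA levels therefore report the priming step of this pathway and not the cutting step. In brain, PTGS2 is also made by neurons and endothelium.

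IL1B and PTGS2 had all 3 pacing values under the lowest sham value, and the arms of the other 8 genes overlapped. By the difference of mean log2 values 7 of the 10 genes were lower in pacing and 3 were higher. None passed the test across all genes. Without sham replicate 2 each of the 7 lower genes had a smaller difference, IL6 with its sign turned, and those of TLR4 and MYD88 were larger. Sham replicate 2 held the highest value of 7 of the 10 genes. That library was the highest for 31.7% of all genes with a mean of at least 0.1 RPKM.

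The values are RPKM, reads assigned to a gene, scaled by its exon length and by the depth of the library. The 6 libraries held 35003483 to 51789497 assigned reads. Sham replicate 2 stood apart on the first principal component, at 39.6 against -13.5 to 8.61 for the other libraries, and sham replicate 3 on the second, at -29.1 against -6.21 to 13.6. Markers of hippocampal neurons were present in every library, with NEUROD6 at 222 to 345 RPKM in pacing and 188 to 271 RPKM in sham. PROX1, a marker of dentate granule cells, stood at 6.07 to 7.90 RPKM in pacing and 4.82 to 7.17 RPKM in sham.

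**Figure D1:**
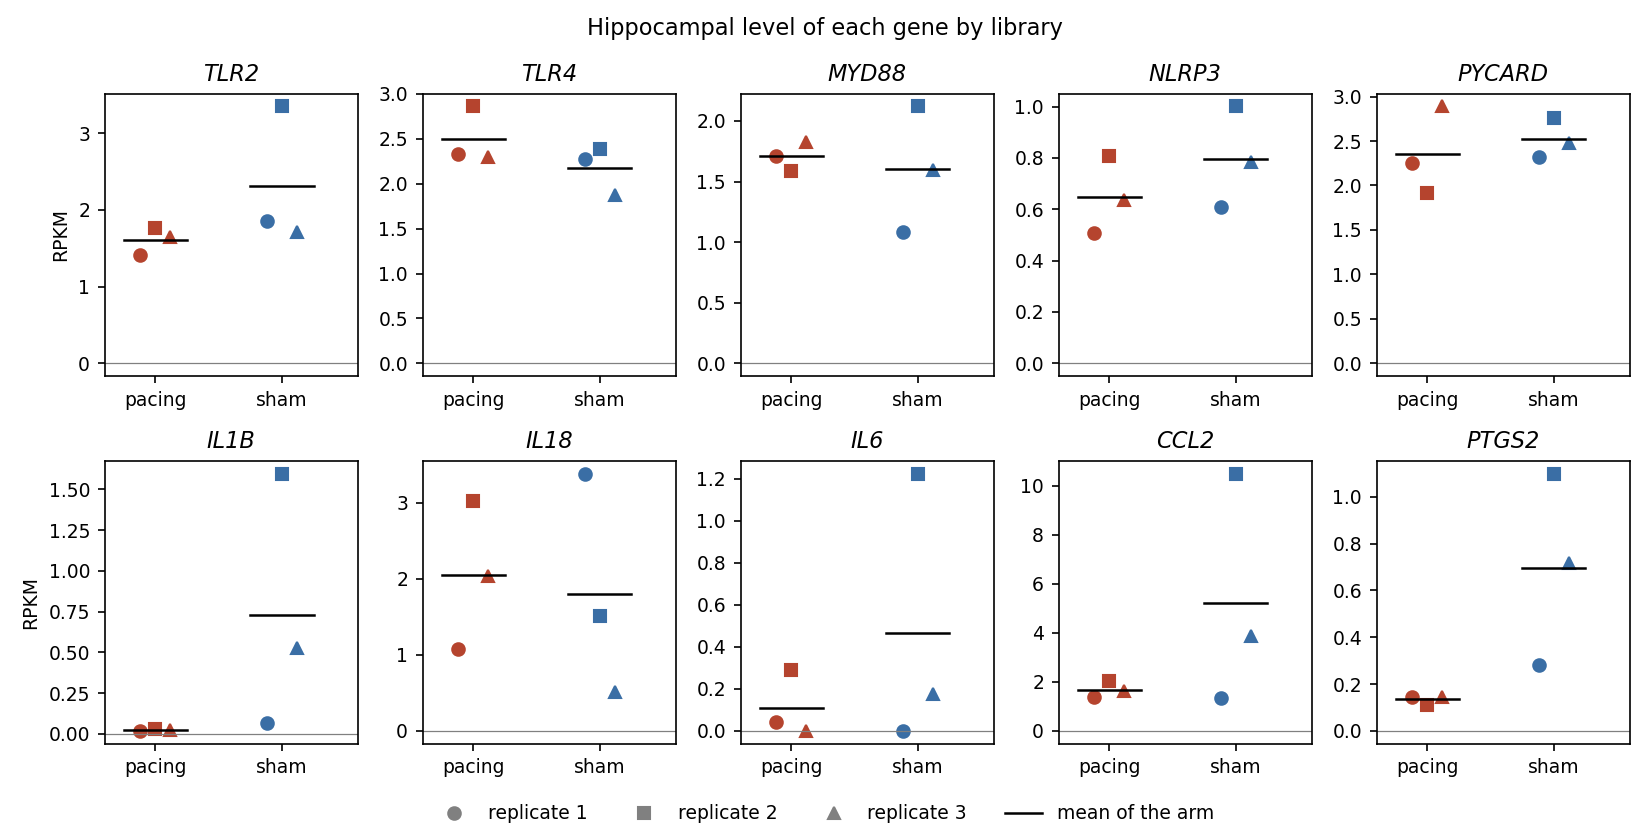
RPKM (vertical axes, linear from 0 and scaled separately) of the 10 genes in the 3 pacing and 3 sham libraries; symbols give the replicate number and lines the mean of the arm. IL1B and PTGS2 lie lower in all pacing libraries, and sham replicate 2 (square) is the highest library for 7 genes.

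The receptors and the adaptor were expressed at low, similar levels. Positions are those of the table, whose sequence names match the dog build CanFam3.1. TLR2, which senses bacterial lipoproteins, lies on chromosome 15 from 51454557 to 51465429. It stood at 1.41, 1.77 and 1.65 RPKM in pacing replicates 1 to 3, against 1.86, 3.35 and 1.72 RPKM in sham replicates 1 to 3. The arms overlapped, since sham replicate 3 lay below pacing replicate 2, and sham replicate 2 was 1.81 times the next highest library. The mean was 1.61 ± 0.180 RPKM in pacing and 2.31 ± 0.907 RPKM in sham (SD, n = 3 each), a log2 difference of -0.31 (95% interval -0.75 to 0.13, limma adjusted p = 0.630). Without sham replicate 2 the log2 difference of TLR2 was -0.10 (95% interval -0.36 to 0.17).

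TLR4, the receptor for bacterial lipopolysaccharide, lies on chromosome 11 from 71356390 to 71367166. It stood at 2.33, 2.86 and 2.30 RPKM in pacing and at 2.27, 2.38 and 1.87 RPKM in sham. Sham replicate 2 lay between pacing replicates 1 and 2, so the arms overlapped, and TLR4 was the gene among the receptors that leaned towards pacing. Its log2 difference was 0.14 (95% interval -0.14 to 0.41, limma adjusted p = 0.721). TLR4 was also among the more stable genes of the group, with the highest library at 1.53 times the lowest. MYD88, the adaptor shared by TLR2 and TLR4, lies on chromosome 23 from 7901578 to 7905274. It stood at 1.71, 1.59 and 1.83 RPKM in pacing, against 1.08, 2.12 and 1.59 RPKM in sham. All 3 pacing values of MYD88 fell between the lowest and the highest sham value. The log2 difference was 0.08 (95% interval -0.29 to 0.44, limma adjusted p = 0.894) and was 0.22 without sham replicate 2 and -0.07 without sham replicate 1.

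The inflammasome genes differed little between arms. NLRP3, the sensor of the complex, lies on chromosome 8 from 251776 to 313290 in 11 exon blocks. It stood at 0.506, 0.809 and 0.635 RPKM in pacing, against 0.608, 1.001 and 0.783 RPKM in sham. These values rest on 89, 134 and 90 reads in pacing and on 123, 210 and 116 reads in sham. The arms overlapped, and the log2 difference was -0.12 (95% interval -0.41 to 0.16, limma adjusted p = 0.767), or -0.04 without sham replicate 2. PYCARD, which lies on chromosome 6 from 17049352 to 17051348, stood at 2.26, 1.91 and 2.89 RPKM in pacing and at 2.32, 2.76 and 2.48 RPKM in sham. Pacing replicates 2 and 3 held the lowest and the highest value of all 6 libraries, which were 1.51-fold apart. The log2 difference of PYCARD was -0.08 (95% interval -0.39 to 0.23, limma adjusted p = 0.873), and it was -0.03 without sham replicate 2 and 0.02 without pacing replicate 2. In the annotation PYCARD shares 17 exonic bases with TRIM72 on the opposite strand. The library kit marks strand per the labels' protocols, and no source used here states whether the counting used it.

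IL1B, the cytokine that the inflammasome releases, was close to absent in pacing. The gene model lies on the minus strand of chromosome 17 from 37019329 to 37033388, and no other model shares an exonic base with it. There were 2, 3 and 2 reads in pacing, against 8, 210 and 49 reads in sham. On the RPKM scale that was 0.0181, 0.0289 and 0.0225 in pacing and 0.0631, 1.596 and 0.527 in sham. The arms did not overlap, but sham replicate 1 lay far closer to the pacing libraries than to the other sham libraries. The mean was 0.0232 ± 0.00540 RPKM in pacing and 0.729 ± 0.786 RPKM in sham (SD, n = 3 each).

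Summed over each arm, the 7 reads of IL1B in pacing and 267 in sham gave a read share 32.9-fold lower in pacing (exact 95% interval 15.8 to 82.7). Against sham replicate 1 alone the share was 2.73-fold lower (0.865 to 8.85), an interval that includes no difference. Against sham replicates 1 and 3 together it was 11.2-fold lower (5.11 to 29.2). These intervals cover counting error only and not the spread between samples. IL1B had a mean under 0.5 RPKM and so did not enter the main test. It met the 0.1 RPKM minimum of the alternative only through its sham level, so its fits there are no support for a difference. With all genes of at least 0.1 RPKM tested, its log2 difference was -0.66 on the log2(RPKM + 1) scale, which understates the change of a gene this low (95% interval -1.32 to -0.001, limma adjusted p = 0.540). edgeR on recovered reads gave -4.85 (adjusted p = 0.357). Without sham replicate 2 the limma difference was -0.32 (95% interval -0.67 to 0.03, adjusted p = 0.480).

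PTGS2, which encodes cyclooxygenase-2, the inducible enzyme of prostaglandin synthesis, also had its arms apart. It lies on the minus strand of chromosome 7 from 19668079 to 19674903. Reads numbered 22, 16 and 18 in pacing, against 49, 200 and 92 in sham, which is 0.144, 0.111 and 0.146 RPKM in pacing against 0.279, 1.10 and 0.715 RPKM in sham. Each sham library was above each pacing library, including sham replicate 1. The summed read share was 5.25-fold lower in pacing (exact 95% interval 3.95 to 7.10), and 2.09-fold lower against sham replicate 1 alone (1.40 to 3.12). With the 0.1 RPKM minimum the log2 difference was -0.55 (95% interval -0.94 to -0.17, limma adjusted p = 0.420), and edgeR gave -2.31 (adjusted p = 0.328). Without sham replicate 2 the limma difference of PTGS2 was -0.39 (95% interval -0.69 to -0.08, limma adjusted p = 0.367).

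All pacing libraries lay below all sham libraries for 2 of the 10 genes, IL1B and PTGS2, and above them for 0. Of 21098 gene models with at least 0.1 RPKM, the arms did not overlap for 16.2%, with pacing the lower arm for 11.3% and the higher arm for 4.88%. A count of 2 in 10 is near that background. Among the 7 genes with at least 0.5 RPKM 0 had arms apart, beside 16.2% of all genes at that minimum (11.3% with pacing lower, 4.92% with pacing higher). An exact permutation test of 3 against 3 libraries cannot give a two-sided p below 0.1 for any single gene.

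CCL2, the chemokine that draws monocytes, had the widest spread among the genes of higher level. It lies on the minus strand of chromosome 9 from 39008187 to 39009932. It stood at 1.39, 2.02 and 1.63 RPKM in pacing, against 1.34, 10.5 and 3.86 RPKM in sham. Sham replicate 1 was the lowest of all 6 libraries, and sham replicate 2 was 2.71 times the next highest. Reads numbered 38, 52 and 36 in pacing and 42, 342 and 89 in sham. The log2 difference was -0.93 (95% interval -2.11 to 0.26, limma adjusted p = 0.611). It was -0.34 without sham replicate 2 and -1.49 without sham replicate 1 (adjusted p = 0.112 in limma).

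IL6, a cytokine that acts through the IL6R and IL6ST receptors, had few or no reads outside sham replicate 2. It lies on chromosome 14 from 36474268 to 36478519. Pacing libraries held 2, 13 and 0 reads, and sham libraries held 0, 70 and 7 reads. Libraries with 0 reads allow up to 0.0776 RPKM in pacing replicate 3 and up to 0.0544 RPKM in sham replicate 1, taking 3 reads as the floor. Pacing replicate 2 and sham replicate 3 were close to each other, at 0.288 and 0.173 RPKM, and sham replicate 2 stood alone at 1.22 RPKM. With the 0.1 RPKM minimum the log2 difference was -0.32 (95% interval -0.97 to 0.33, limma adjusted p = 0.724), and it turned to 0.03 without sham replicate 2.

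IL18, the other cytokine that caspase-1 matures, was highest in the sham library in which CCL2 was lowest. It lies on chromosome 5 from 20972742 to 20995327. It stood at 1.08, 3.03 and 2.03 RPKM in pacing, against 3.38, 1.51 and 0.507 RPKM in sham. The highest and the lowest of the 6 libraries, 6.67-fold apart, were sham replicates 1 and 3, so the spread within the sham arm was wider than any gap between the arms. The log2 difference was 0.21 (95% interval -0.73 to 1.14, limma adjusted p = 0.891). It was 0.60 without sham replicate 1, -0.02 without pacing replicate 2 and -0.17 without sham replicate 3. IL18 rests on 248 reads in pacing and 272 in sham.

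**Figure D2:**
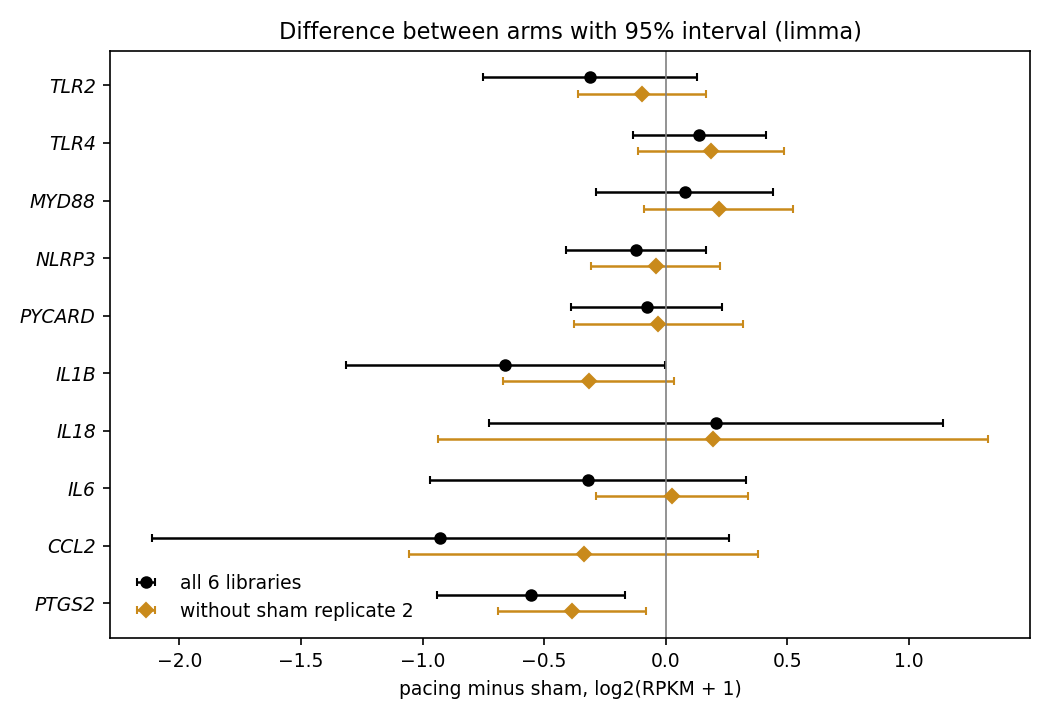
Log2 difference of each gene, pacing minus sham, on the log2(RPKM + 1) scale (horizontal axis) with its 95% limma interval, for all 6 libraries (circles) and without sham replicate 2 (diamonds). With all libraries the intervals of IL1B (-1.32 to -0.001) and PTGS2 (-0.94 to -0.17) lie below 0, before any adjustment for the number of genes. Without sham replicate 2 only that of PTGS2 does. IL1B met the 0.1 RPKM minimum only through its sham level, so its interval is no support for a difference.

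Of the 10 genes, 7 had a mean of at least 0.5 RPKM and entered the limma test over 16090 genes. None of the 7 passed an adjusted p of 0.05, a threshold that 0.0249% of all tested genes passed, and 0 of the 7 had an unadjusted p under 0.05, beside 9.15% of all genes. edgeR on the recovered reads of the same 16090 genes also passed 0 of the 7, beside 0.0311% of all, and gave CCL2 an unadjusted p under 0.05. With the 0.1 RPKM minimum 0 of 10 passed in limma, beside 0.0332% of all genes, and 2 of 10, IL1B and PTGS2, had an unadjusted p under 0.05, against 9.23% of all genes tested. IL1B met that minimum only through its sham level, so its p is no support for a difference. edgeR at the same minimum also passed 0 of 10, beside 0.0284% of all genes, and gave 3 of 10 an unadjusted p under 0.05, namely IL1B, CCL2 and PTGS2, against 9.15% of all genes. The 95% intervals were widest for CCL2 and IL18 and narrowest for TLR4, NLRP3 and PYCARD.

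Per length, in pacing the order of mean levels was TLR4 (2.497 RPKM), PYCARD (2.35), IL18 (2.05), MYD88 (1.71), CCL2 (1.68), TLR2 (1.61), NLRP3 (0.650), PTGS2 (0.134), IL6 (0.110) and IL1B (0.0232). The first 6 overlapped with their neighbours in that order. All pacing values of NLRP3 lay below all those of TLR2 and above all those of PTGS2, IL6 overlapped PTGS2, and IL1B lay below PTGS2 in each pacing library. In sham, CCL2 came first (5.23 ± 4.72 RPKM, SD, n = 3), followed by PYCARD (2.52), TLR2 (2.31), TLR4 (2.18), IL18 (1.80), MYD88 (1.599), NLRP3 (0.797), IL1B (0.729), PTGS2 (0.698) and IL6 (0.466). All sham values of MYD88 lay above all those of NLRP3, and every other pair of neighbours in the sham order overlapped.

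The genes fell into unlike profiles over the 6 libraries. IL1B, CCL2 and PTGS2 each had sham replicate 2 first and sham replicate 3 second, and Pearson r on the log2(RPKM + 1) scale was 0.99 for IL1B with CCL2 and 0.97 for IL1B with PTGS2. IL6, TLR2 and NLRP3 followed IL1B at r of 0.90, 0.90 and 0.82. IL18 ran with TLR4 (r of 0.71) and not with IL1B (r of -0.39). With 6 points that share libraries, and with sham replicate 2 far from the rest, these coefficients are descriptions only.

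Genes whose profile was most like a member were named for the 7 members in the main test, by Pearson r over the 6 libraries among 12766 genes with a symbol. For CCL2 these were USP54 (0.998), WDR91 (0.998) and EZH1 (0.997), and 391 genes had r above 0.95. For TLR2 they were FAM214A (0.998), GABARAP (0.997) and THOC1 (0.994), with 214 genes above 0.95.  Fewer were alike for the others, from 34 above 0.95 for TLR4 to 8 for PYCARD. TLR4 was most like PCCB, TIAM2 and ABI3 (r of 0.985 to 0.988), MYD88 like C18H11orf74, PABPC1 and B3GLCT (0.986 to 0.995), and IL18 like LRRC75A, CHRNA1 and PRR36 (0.99 each). NLRP3 was most like DENND4C, ITPRIPL1 and SEPT1 (0.98 each), and PYCARD like TOP2B (0.99), CHPT1 (0.97) and CCDC172 (0.97).

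The libraries that were high for IL1B were also high for immediate early genes, transcripts induced rapidly by neuronal activity and other stimuli. FOS had 52, 29 and 27 reads in pacing and 45, 1405 and 311 reads in sham. For FOS sham replicate 1 lay among the pacing libraries, while for IL1B it lay above them. The summed level of 13 immediate early genes was 106 to 124 RPKM in pacing and 107, 245 and 199 RPKM in sham replicates 1 to 3, and 10 of the 13 were highest in sham replicate 2. ATF3, a stress-induced transcription factor, stood at 1.30, 1.13 and 1.43 RPKM in pacing and at 1.12, 7.16 and 2.22 RPKM in sham. The co-chaperone BAG3 stood at 8.74, 10.2 and 7.94 RPKM in pacing and at 7.29, 28.1 and 12.1 RPKM in sham. The 12 measured heat shock genes summed to 4549 to 4832 RPKM in pacing and 4674 to 5351 RPKM in sham, and 2 of the 12 were highest in sham replicate 2. The part of these differences between libraries in the cytokine values was not tested.

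**Figure D3:**
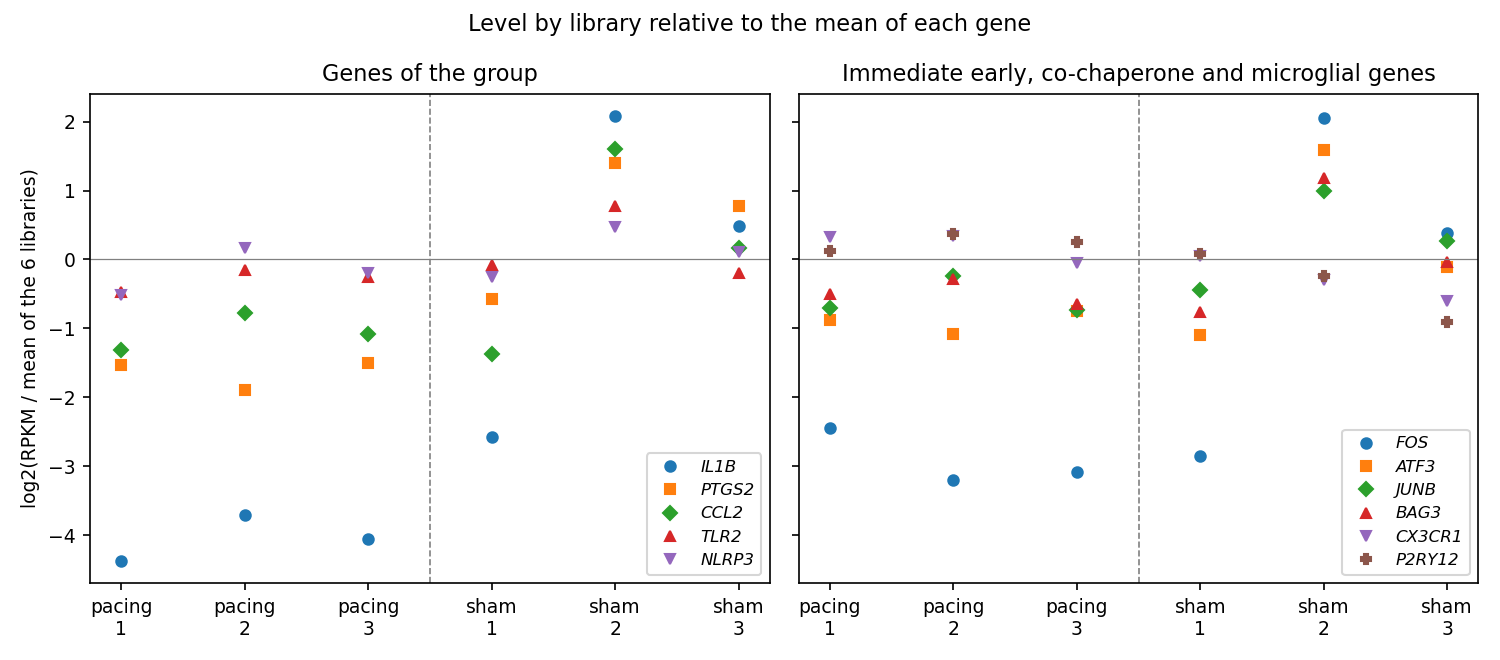
Log2 of RPKM over the mean of the 6 libraries (vertical axis) by library (horizontal axis, dashed line between arms), for 5 genes of the group (left) and for immediate early, co-chaperone and microglial genes (right). IL1B, CCL2 and PTGS2 reach their highest value in sham replicate 2, as FOS, ATF3, JUNB and BAG3 do. CX3CR1 and P2RY12 do not, while 4 of the 11 measured microglial markers, and the sum of the 11, do.

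Microglia are the brain cells known for most of these transcripts. Their homeostatic markers P2RY12 and CX3CR1 were not highest in sham replicate 2, while the sum of their measured markers was. In bulk tissue, fewer cells of a type and less RNA per cell cannot be told apart. The homeostatic marker P2RY12 stood at 6.80, 8.08 and 7.47 RPKM in pacing and at 6.61, 5.28 and 3.34 RPKM in sham, and CX3CR1 at 2.61, 2.65 and 2.01 RPKM in pacing and at 2.16, 1.70 and 1.37 RPKM in sham. The summed level of 11 microglial markers, none at 0 reads in any library, was 124 to 145 RPKM in pacing and 114 to 189 RPKM in sham. It was highest in sham replicate 2, where C1QB alone stood at 87.0 RPKM. Neither P2RY12 nor CX3CR1 passed the test (limma adjusted p = 0.529 and 0.547), and 4 of the 11 markers were highest in sham replicate 2.

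Other cell types differed between libraries as well. The 8 measured markers of blood myeloid cells summed to 34.8 to 37.9 RPKM in pacing and to 27.1, 57.0 and 40.2 RPKM in sham replicates 1 to 3. Of the 8, 4 were highest in sham replicate 2. Among these S100A8, a neutrophil gene, stood at 3.995 RPKM in sham replicate 2 against at most 1.91 RPKM elsewhere. The myeloid marker ELANE was at 0 reads in 5 of the 6 libraries. The choroid plexus gene TTR ranged from 70.5 to 155 RPKM in pacing and stood at 2.46, 449 and 42.9 RPKM in sham, and the 8 choroid plexus markers summed to 76.4 to 159 RPKM in pacing and 6.02 to 456 RPKM in sham. The 7 measured astrocyte markers summed to 1936 to 2201 RPKM in pacing and 1689 to 3015 RPKM in sham, again with sham replicate 2 the highest. The 8 hippocampal neuron markers summed to 1524 to 1998 RPKM in pacing and 1134 to 1702 RPKM in sham, with sham replicate 2 the lowest. Endothelial markers, 8 measured and none at 0 reads, summed to 27.7 to 28.3 RPKM in pacing and 23.5 to 31.3 RPKM in sham, and 8 meningeal fibroblast markers to 16.5 to 17.1 RPKM in pacing and 11.99 to 15.5 RPKM in sham. The 4 measured erythrocyte markers summed to 1.36 to 1.76 RPKM in pacing and 1.65 to 2.47 RPKM in sham, with HBM and SLC4A1 at 0 reads in 5 libraries each. The part of these cell types in the cytokine values was not tested.

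Around the inflammasome, 15 of 20 listed genes were in the table, 8 reached the mean of 0.5 RPKM for the test, and 0 passed, with 4 higher and 4 lower in pacing by mean. CASP1, AIM2, NLRP6, NLRP12 and NAIP were not analysed here. The 3 smallest p belonged to CASP8, a caspase that can act beside the inflammasome, and to P2RX4 and P2RX7, receptors for extracellular ATP. CASP8 stood at 0.521 ± 0.119 RPKM in pacing and 0.802 ± 0.244 RPKM in sham (log2 difference -0.24, limma adjusted p = 0.607). P2RX7, whose opening is a trigger of NLRP3, stood at 0.572 ± 0.218 RPKM in pacing and 0.854 ± 0.231 RPKM in sham (SD, n = 3 each). P2RX4 lay the other way, at 5.87 ± 0.390 RPKM in pacing and 4.85 ± 0.988 RPKM in sham. TXNIP, a binding partner of NLRP3 named after its values were seen, stood at 38.4 RPKM in sham replicate 2 and at 9.67 to 12.4 RPKM elsewhere. The median log2 difference of the 8 was -0.01, beside -0.04 for all genes tested.

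Of 14 genes of the IL-1 and IL-18 families and their receptors 5 were tested and 0 passed, with 2 higher and 3 lower in pacing by mean. IL1R1, the receptor that carries the IL-1 signal, was higher in every pacing library, at 6.51, 6.65 and 6.24 RPKM in pacing and 5.25, 5.07 and 4.13 RPKM in sham (log2 difference 0.37, limma adjusted p = 0.417). It was 1 of the 5 with arms apart and pacing higher, beside 4.92% of all genes tested. IL18BP, a secreted protein that binds and blocks IL-18, was lower in every pacing library, at 0.465 ± 0.0202 RPKM in pacing and 0.750 ± 0.0900 RPKM in sham (log2 difference -0.26, limma adjusted p = 0.483). IL18BP met the 0.5 RPKM minimum only through its sham level, so its p is no support for a difference. It was 1 of the 5 with arms apart and pacing lower, beside 11.3% of all genes tested. IL1RAP, the co-receptor, stood at 1.65 ± 0.504 RPKM in pacing and 2.64 ± 0.789 RPKM in sham. Over the 5 genes the median log2 difference was -0.26.

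Among the 28 genes of toll receptors and adaptors 16 were tested, 8 were higher and 8 lower in pacing by mean, and 0 passed. TICAM2, the adaptor that links TLR4 to the interferon branch, was lower in every pacing library, at 4.66, 4.26 and 3.90 RPKM in pacing and 6.14, 6.76 and 6.94 RPKM in sham. Its log2 difference was -0.53 (limma adjusted p = 0.273), and here sham replicate 1 lay with the other sham libraries. CD14, the co-receptor that hands lipopolysaccharide to TLR4, stood at 1.28, 1.51 and 1.34 RPKM in pacing and 1.55, 4.08 and 3.03 RPKM in sham (log2 difference -0.65, limma adjusted p = 0.487). TAB2, a kinase adaptor downstream of MYD88, stood at 10.1 ± 0.142 RPKM in pacing and 11.5 ± 1.22 RPKM in sham. The arms did not overlap for these 3 of the 16, with pacing lower in each, beside 11.3% of all 16090 genes. The median log2 difference of the 16 was -0.00.

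Of 16 NF-kB genes 15 were tested, 13 were lower in pacing by mean and 2 higher, and 0 passed, where 41.1% of all genes tested were higher. BIRC3, an NF-kB target that restrains cell death, NFKBIE, an inhibitor of the pathway, and NFKB2, a subunit of its second branch, had the smallest p and were lower in every pacing library, and these 3 of 15 stand beside 11.3% of all genes tested. CHUK, a kinase that activates NF-kB, was higher in every pacing library, at 4.37, 4.22 and 4.24 RPKM in pacing and 4.11, 3.61 and 3.84 RPKM in sham (log2 difference 0.12, limma adjusted p = 0.696). It was the 1 of 15 with arms apart and pacing higher, beside 4.92% of all genes tested. NFKBIE stood at 2.06 ± 0.327 RPKM in pacing and 3.09 ± 0.272 RPKM in sham (log2 difference -0.42, limma adjusted p = 0.394). NFKB2 stood at 1.32 ± 0.141 RPKM in pacing and 1.80 ± 0.0813 RPKM in sham (log2 difference -0.28, limma adjusted p = 0.481). For BIRC3 the log2 difference was -1.08 (limma adjusted p = 0.210). The list's median was -0.10, and 9 of its 15 genes were highest in sham replicate 2, beside 33.0% of all genes tested.

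Of 25 genes of IL-6 and chemokine signalling 14 were tested, 9 were higher and 5 lower in pacing by mean, and 0 passed. CCL5, a chemokine made by T cells among others, was higher in every pacing library, at 0.755, 0.673 and 0.936 RPKM in pacing and 0.131, 0.405 and 0.322 RPKM in sham (log2 difference 0.48, limma adjusted p = 0.36). CCL5 met the 0.5 RPKM minimum only through its pacing level, so its p is no support for a difference. It was 1 of the 14 with arms apart and pacing higher, beside 4.92% of all genes tested. The 9 measured lymphocyte markers summed to 2.91 to 3.39 RPKM in pacing and 1.59 to 2.38 RPKM in sham, with 5 of the 9 at 0 reads in some library. Of the 9, 3 were highest in sham replicate 2. The T cell gene CD3E had 43 reads in pacing and 9 in sham; their part in the CCL5 value was not tested. JAK2, the kinase behind cytokine receptors, stood at 9.76 ± 0.825 RPKM in pacing and 7.99 ± 1.47 RPKM in sham, and CX3CL1, the neuronal ligand of the microglial receptor CX3CR1, at 15.9 ± 2.29 RPKM in pacing and 11.5 ± 5.25 RPKM in sham. TNF had 1 read in pacing and 5 in sham, too few for any comparison. The median log2 difference of the list was 0.11.

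Of 16 other genes of prostaglandin synthesis and reception 10 were tested, 5 were higher and 5 lower in pacing by mean, and 0 passed. PTGS1, the constitutive cyclooxygenase, stood at 10.4, 11.7 and 9.67 RPKM in pacing and 10.2, 9.41 and 5.42 RPKM in sham (log2 difference 0.35, limma adjusted p = 0.631). PLA2G4A, which frees the arachidonic acid that both enzymes use, stood at 0.909 ± 0.224 RPKM in pacing and 1.16 ± 0.487 RPKM in sham. PTGES2, a prostaglandin E synthase, stood at 3.43 ± 1.03 RPKM in pacing and 4.01 ± 0.725 RPKM in sham. The median log2 difference was -0.03. The difference between the PTGS1 and PTGS2 responses was not itself tested.

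**Figure D4:**
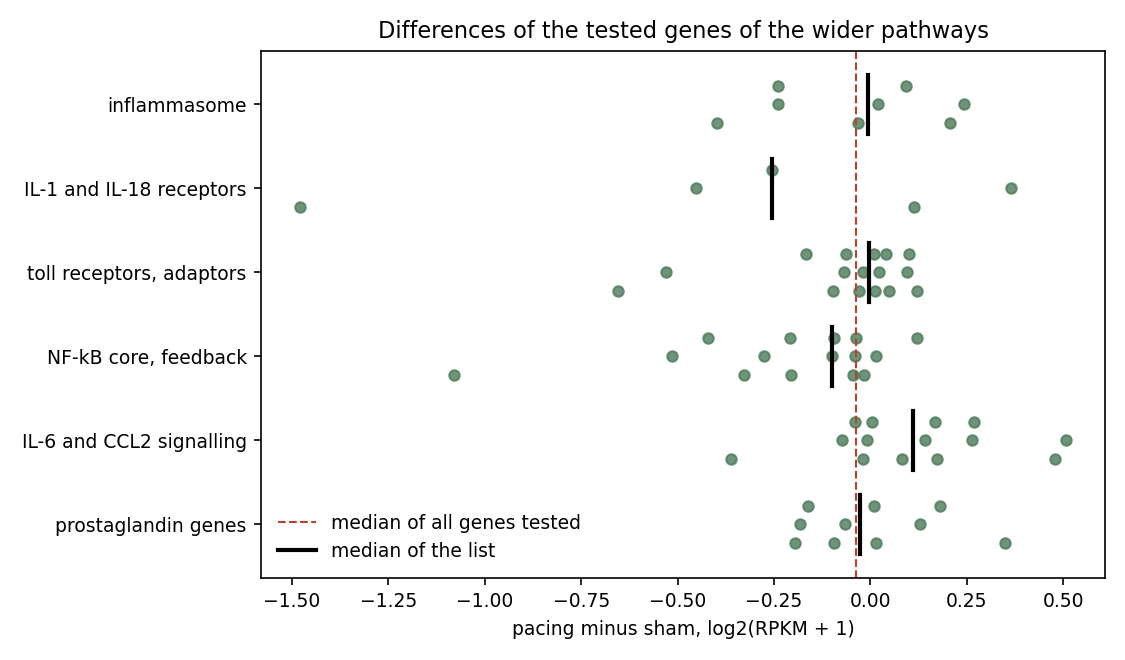
Log2 difference, pacing minus sham, of each tested gene (points; horizontal axis, log2(RPKM + 1) scale) in the 6 wider lists, with the median of the list (black bar) and of all genes tested (dashed line, -0.04). The NF-kB list has 13 of 15 points below 0, and the point far left among the IL-1 and IL-18 receptors is IL33 (-1.48).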

How the data were processed

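Hippocampal mRNA was sequenced from 3 pacing and 3 sham samples. The deposited table gives RPKM per gene model, made by the authors; the tools named, per the submitters' processing notes, are STAR 2.5.3a, featureCounts and Trimmomatic 0.36, with no roles stated. No source used here names the build; sequence names match CanFam3.1, and coordinates are 1-based as the table gives them. The deposited exosome miRNA table, whose values are RPM (scaled to listed reads, with no length term), was not analysed. RPKM multiplied by the deposited length gave whole reads, within 0.01 of a read, for 100% of values in each library.

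Genes with a mean of at least 0.5 RPKM were tested with limma-trend 3.58.1 (R 4.3.3) on log2(RPKM + 1), pacing minus sham, with Benjamini-Hochberg adjustment over all genes tested and a threshold of 0.05. Genes under that minimum were taken from the alternative at 0.1 RPKM. Alternatives changed the pseudocount, filter, scaling, trend, weights, replicate block, libraries and test, with limma-voom and edgeR 4.0.16 on recovered reads. edgeR at 0.1 RPKM, and 0.1 RPKM without sham replicate 2, were added after the data were seen. The fits were also run on simulated data, for genes with at least 0.5 RPKM and the same dispersion for every gene. No simulated library was set apart as sham replicate 2 is, and IL1B, IL6 and PTGS2 lay under that minimum. The simulation is therefore no support for the fits of these genes. Ratios of read shares carry exact 95% binomial intervals, which cover counting error only. Replicates were distinct libraries. Chi-square per degree of freedom was 12.2 to 22.6 between pairs of pacing libraries and 84 to 209 between pairs of sham libraries.

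The 10 genes and all lists were chosen with earlier results of these data known. Named genes are the 10 members, the 3 genes of smallest p in each pathway list, the 3 most similar profiles per tested member, and up to 3 genes of each marker list; TXNIP, IL33, IL1A, IL37, IL1RN, ATF3, BAG3, JUNB, FOS, TNF, CHUK and CD3E were named after their values were seen.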

Additional observations from a re-analysis of the deposited data

How the results depend on the processing

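No member that was tested passed the adjusted threshold in the 20 alternatives. All 10 were tested in 4 of these, and 6 or 7 in the others, limma-voom and the planned settings that leave out 1 library included, where IL1B, IL6 and PTGS2 have a difference or no value but no test. Over those alternatives the members' differences kept their direction in 188 of 194 values, and the sign held throughout for IL1B, NLRP3, TLR2, TLR4, CCL2 and PTGS2. The 6 that turned all left out 1 library: over such settings IL18 ran from -0.17 to 0.60, PYCARD from -0.19 to 0.018, MYD88 from -0.072 to 0.22 and IL6 from -0.55 to 0.026, the last of these also at the 0.1 RPKM minimum without sham replicate 2. The cause was not tested. Members with arms apart numbered 2, or 3 in some settings: 3 under median-of-ratios and quantile scaling, where TLR4 was higher in pacing, and 2 to 3 when 1 library was left out. The share of all genes with arms apart was taken only as deposited with all 6 libraries (16.2% at 0.1 RPKM). The counts under other scalings or without 1 library therefore have no background share beside them, and nothing is drawn from them.

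The count of all genes past the threshold was 4 (3 higher, 1 lower). It was 7 with no filter, 7 at the 0.1 RPKM minimum, 23 with library weights, and 10 at 0.1 RPKM without sham replicate 2. It ran from 3 to 95 when 1 library was left out, with 95 without sham replicate 1 and 9 without sham replicate 2. With the replicate number as a block it was 7, and none of the 7 members tested passed. Deviations of same-numbered libraries from the mean of their arm correlated at -0.11, 0.06 and -0.01. With 3 libraries per arm these values cannot tell whether the numbers pair the samples. The median of all genes moved by less than 0.1 on the log2 scale between scalings (-0.04 as deposited, 0.01 and 0.00). Few reads limit IL1B and IL6, with 7 and 15 in the whole pacing arm.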

Other observations

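The genes below were chosen after their values were seen and stand for no group. IL1A, the sister cytokine of IL1B, had 12, 10 and 10 reads in pacing and 26, 74 and 30 reads in sham, so its arms did not overlap, beside 16.2% of all genes with at least 0.1 RPKM (11.3% with pacing lower). IL37, whose span overlaps that of IL1B on the opposite strand without a shared exonic base, stood at 0.0527, 0.0559 and 0.131 RPKM in pacing and 0.199, 0.398 and 0.229 RPKM in sham. IL33, an alarmin of the same family that glia and endothelium hold in the nucleus, stood at 0.954, 0.537 and 2.02 RPKM in pacing and at 0.709, 5.96 and 15.5 RPKM in sham, with its highest value in sham replicate 3 and not in sham replicate 2. Its log2 difference was -1.48 (limma adjusted p = 0.595). IL1RN, the antagonist of IL-1, stood at 0.268 ± 0.0806 RPKM in pacing and 0.305 ± 0.183 RPKM in sham (SD, n = 3 each).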
